A study of Arabidopsis thaliana with 10 samples.

Results

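The mitochondrial genome held 82 of the 9759 peaks in the list deposited for line L1 and 100 of the 9145 peaks in the list for line L4. They were taken as every peak on the mitochondrial molecule, and their genes as the assigned identifiers that start with ATMG. The peaks were assigned to 58 genes in L1 and 66 in L4, or 72 genes in either list, out of 10143 genes assigned in the whole series. The list for line L3 had 12 peaks, all on the plastid genome, and none on the mitochondrial one.

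Chromatin immunoprecipitation followed by sequencing (ChIP-seq) was done with an anti-GFP antibody on Arabidopsis seedlings that carried a YFP-LIMYB transgene, to map where the tagged protein sits on DNA. The 10 samples fell into the lines L1 (2 samples), L4 (4 samples) and L3 (4 samples), all labelled as overexpressing LIMYB. Their titles name the lines LIMYB-32 L1, LIMYB-32 L4 and LIMYB-32 L3, and what LIMYB-32 stands for is not stated. The 4 samples of L4 and the 4 of L3 carry only 2 replicate numbers each, every number with 2 title suffixes of unstated meaning. Whether they come from separate batches of seedlings is not stated. Seedlings of up to 12 days were crosslinked with 1% formaldehyde and nuclei were isolated before the libraries were made. Neither the promoter of the transgene nor whether the 3 lines descend from separate transformation events is stated in these sources. No input DNA, untagged plant or mock immunoprecipitation is among the samples. Each line had a single annotated peak list without columns per sample, so that no value of a peak carries a replicate error and no difference between L1 and L4 could be tested. Depth per sample is unknown.

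LIMYB is a MYB-domain protein that acts downstream of the receptor kinase NIK1, and MYB proteins are known as DNA-binding regulators of nuclear genes. The plant mitochondrial genome encodes subunits of the respiratory chain and the ATP synthase, ribosomal proteins, ribosomal and transfer RNAs and many open reading frames. Its genes are separated by long intergenic stretches and are transcribed by nuclear-encoded polymerases. Copies of mitochondrial DNA also lie in plant nuclear genomes, and in Arabidopsis a large one is known near the centromere of chromosome 2. None of the 72 identifiers was matched to a name, so the genes are given by identifier, strand and length. The authors assigned each peak to a nearby protein-coding transcript, which was not always the gene with the closest edge. For example, the L1 peak at 156550 to 156750 lay within ATMG00560 (154744 to 157345). It was assigned to ATMG00570, 741 bp away. A peak at a ribosomal or transfer RNA gene therefore carries the identifier of a protein-coding neighbour.

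Mitochondrial peaks were mostly taller than nuclear peaks but had a lower deposited fold enrichment. The pileup, which is the number of overlapping fragments at the summit, had a median of 41 in L1 (95% exact order-statistic interval 36 to 46, 82 peaks) and 62 in L4 (54 to 72, 100 peaks). Plastid peaks had median pileups of 166 in L1 and 255 in L4, and nuclear peaks had medians of 19 and 17. Mitochondrial peaks thus stood between the other genomes: all 82 in L1 and all 100 in L4 exceeded the nuclear median, and none reached the plastid median. The intervals are for the medians, not for single peaks, and reflect variation between peaks only.

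Fold enrichment, the ratio of the pileup to the pileup expected locally, had a mitochondrial median of 5.71 in L1 (5.38 to 6.69) and 5.265 in L4 (4.81 to 6.05). The plastid medians were 3.14 in L1 and 2.73 in L4, and the nuclear medians were 8.72 and 11.65. Only 9 of 82 mitochondrial peaks in L1 and 7 of 100 in L4 exceeded the nuclear median fold. By contrast, 82 of 82 in L1 and 99 of 100 in L4 exceeded the plastid median fold, and 13 and 28 exceeded the highest plastid fold. The order of the genomes by pileup was therefore the reverse of their order by fold in both lists. At many nuclear peaks the denominator of the fold was at or near its lowest value, given below.

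**Figure D1:**
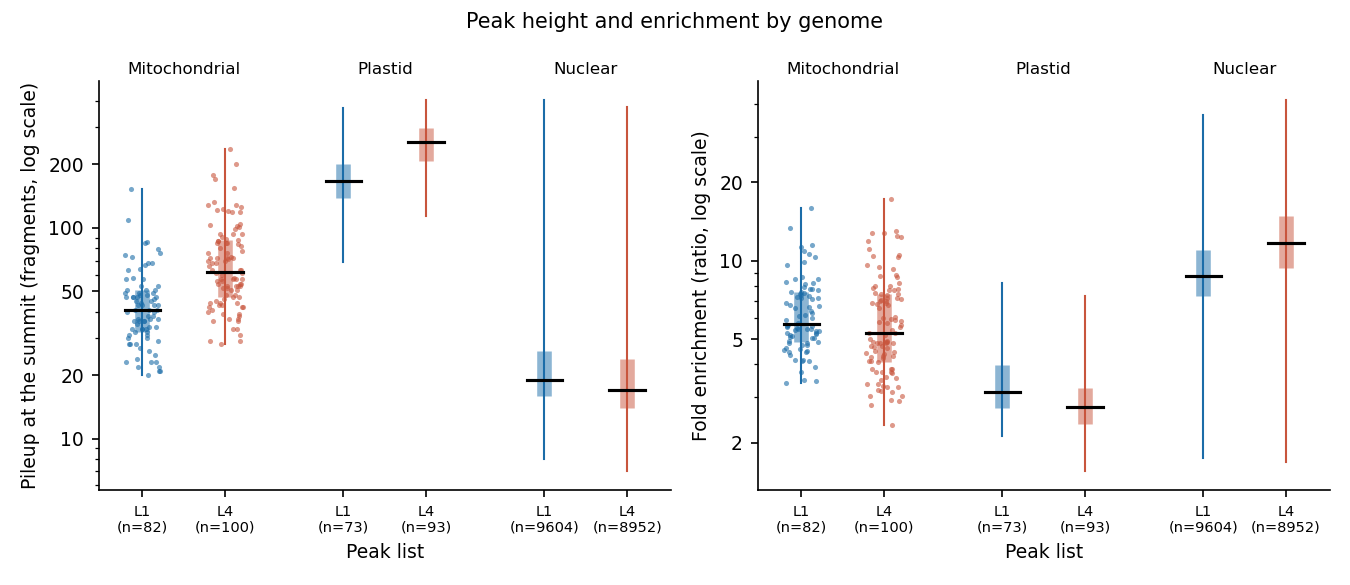
Pileup at the summit (left, fragments, log axis) and fold enrichment (right, ratio, log axis) of mitochondrial, plastid and nuclear peaks in L1 (blue) and L4 (red). Black lines are medians, thick bars run between quartiles, thin lines between the lowest and highest peak, and points are single mitochondrial peaks; mitochondrial medians (41 and 62 fragments, 5.71 and 5.265 fold) lie between the other genomes on both axes.

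The expected pileup, obtained as pileup divided by fold, differed most between the genomes. Its median at mitochondrial peaks was 6.69 fragments in L1 (2.84 to 12.2 over the 82 peaks) and 12.2 in L4 (5.56 to 21.4 over the 100). This was 3.38 times the nuclear median in L1 and 8.95 times in L4. Relative to the plastid median it was 0.126 times in L1 and 0.130 times in L4. Many nuclear values lay at or near the lowest one. The nuclear minimum, lower quartile and median were 1.914, 1.915 and 1.98 fragments in L1, and 1.284, 1.285 and 1.36 in L4. The ratios to the nuclear median therefore depend on that lowest value, which differed between the lists. The part that the copy number of mitochondrial DNA in the nuclear preparations plays in these pileups was not tested. Which control track gave the expected values is not known.

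The median mitochondrial peak was 249.5 bp wide in L1, against 307 bp in L4. Together they covered 22884 bp in L1 and 32095 bp in L4. That was 6.24% and 8.75% of the 366702 bp up to the last mitochondrial position in the lists, or 2.24 and 2.73 peaks per 10000 bp. On a −log10 scale, the q-value had a median of 14.965 in L1 (5.06 to 119.64) and 22.705 in L4 (4.27 to 161.95).

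Most L1 peaks had a counterpart in L4. Of the 82 L1 peaks, 64 overlapped an L4 peak by at least 1 bp, which is 78.0% (95% Clopper-Pearson interval 67.5 to 86.4). Over all L1 peaks the share was 45.6%. In the other direction, 63 of the 100 L4 peaks overlapped 1 from L1, which is 63% (52.8 to 72.4), against 48.6% of all L4 peaks. The mitochondrial shares lay between those of plastid peaks, 91.8% in L1 and 69.9% in L4, and of nuclear peaks, 45.0% in L1 and 48.2% in L4. The intervals cover counting error only, and neighbouring peaks are not independent. The part that the covered share of the molecule plays in the overlap was not tested.

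The overlapping peaks were mostly centred on the same bases. They formed 64 pairs, since 1 L4 peak at ATMG00010 (positions 307 to 977, in the files' coordinates, whose build is not named) spanned 2 L1 peaks. Summits lay a median of 23.5 bp apart (quartiles 7.75 and 49.25 bp), and 50 of the 64 pairs had summits within 50 bp. The largest gap, 356 bp, came from the wide ATMG00010 peak. In 61 pairs both peaks were assigned to the same gene. The other 3 pairs straddled neighbouring genes: ATMG00120 in L1 and ATMG00110 in L4, ATMG00310 in L1 and ATMG00320 in L4, and ATMG01120 in L1 and ATMG01110 in L4.

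Peaks found in both lists tended to be taller and wider. Their median width was 266 bp against 212.5 bp for the other peaks in L1, and 340 bp against 254 bp in L4. A wider peak meets the overlap of 1 bp more easily, so the difference in width is partly built in. In L1 the pileup of overlapping peaks ran from 21 through a median of 43 to 153, against 20, 33.5 and 64 for the 18 peaks found in L1 alone. In L4 it ran from 29 through 76 to 237, against 28, 46 and 87 for the 37 found in L4 alone. Median folds were 6.49 against 5.275 in L1, and 6.88 against 4.21 in L4. The ranges overlapped in each case, but no peak confined to 1 list had a fold above 7.77. Among the upper 41 of the L1 peaks by fold, 37 had an L4 counterpart, and 27 of the lower 41 did. In L4 the counts were 42 of the upper 50 and 21 of the lower 50. The 10 highest folds of each list all had a counterpart in the other.

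Within pairs the expected pileup was close to proportional between the lists, and the fold was not. The expected pileup in L1 was 0.413 to 0.764 times that in L4, with a median of 0.558, and it was lower in L1 in all 64 pairs. Across the 64 pairs it had a Spearman's rho of 0.955 and a Pearson's r of 0.955. The fold had a rho of 0.707 and an r of 0.537, and the pileup 0.647 and 0.674. These correlations are a description, since neighbouring peaks share local background and may share reads. The pileup was higher in L1 in 4 pairs, higher in L4 in 59 and equal in 1. The fold was higher in L1 in 30 pairs and higher in L4 in 34. Of the 10 highest folds in each list, 2 pairs were in common.

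**Figure D2:**
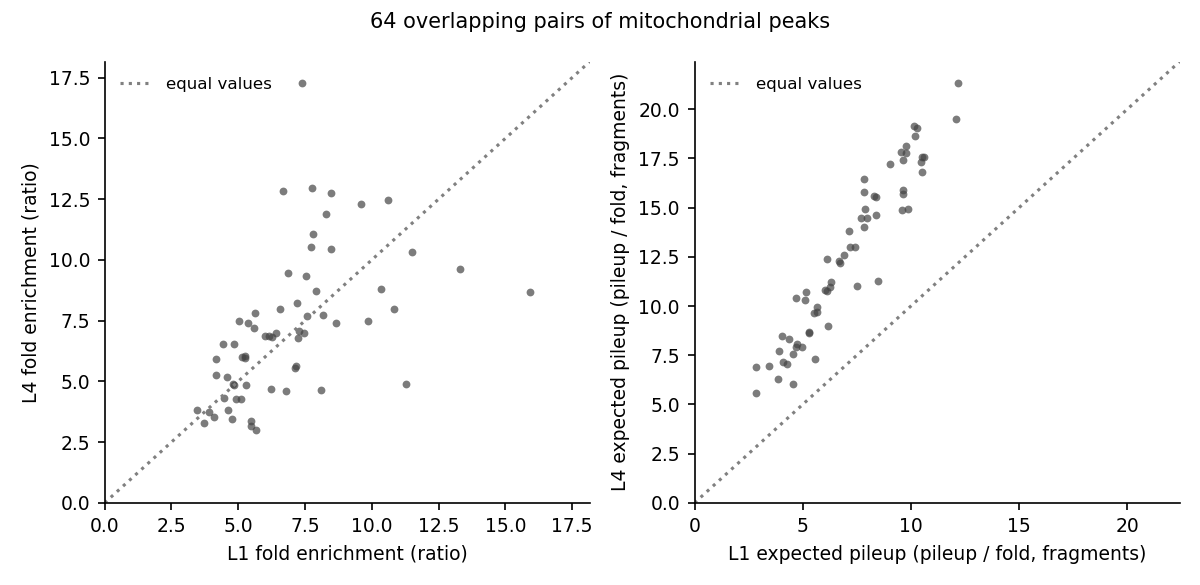
Fold enrichment (left, ratio) and expected pileup (right, fragments) in L1 (horizontal) and L4 (vertical) for the 64 overlapping pairs of mitochondrial peaks. Each point is a pair and the dotted line marks equal values; folds scatter on both sides of it (30 higher in L1, 34 in L4), while the expected pileup lies above it in all 64 pairs.

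The strongest site in both lists by the lower of its folds lay upstream of ATMG00710, a 363-bp gene on the minus strand at positions 207553 to 207915. The peak at 208465 to 208798 in L1 began 550 bp upstream of the gene and had 109 fragments and a fold of 10.62 in L1, against 237 fragments and a fold of 12.45 in L4. A second peak lay over the 5′ end of the same gene, at 207799 to 208127 in L1, with 86 fragments and a fold of 8.48 in L1 and 200 fragments and a fold of 10.45 in L4. These 2 peaks were among the 3 highest pileups of each list, and both sites had the higher fold in L4.

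The highest mitochondrial peak of L1 was at positions 66241 to 66523, 2395 bp downstream of ATMG00240 (distances from a peak to its gene run between their nearest edges), a 336-bp gene on the minus strand. It had 153 fragments and a fold of 15.94 in L1, against 129 fragments and a fold of 8.66 in L4. It was 1 of only 4 pairs with the higher pileup in L1. Its L1 fold stood at percentile 93.4 of all L1 peaks and its pileup at percentile 98.9, so it ranks high in the whole list, nuclear peaks included.

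The highest mitochondrial fold of L4 lay 3468 bp upstream of ATMG00450, a 321-bp gene on the minus strand. The L1 peak there had 21 fragments and a fold of 7.39, and the L4 peak at 123169 to 123510 had 119 fragments and a fold of 17.3. The next highest in L4, upstream of ATMG00480, had 22 fragments and a fold of 7.75 in L1, against 72 fragments and a fold of 12.95 in L4. Both L1 peaks were close to the lowest L1 pileup of 20. The peak over the 5′ end of ATMG01030, at 264194 to 264481 in L4, had 38 fragments and a fold of 6.69 in L1, against 128 fragments and a fold of 12.83 in L4. All 3 sites had both the higher fold and the higher pileup in L4.

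In the opposite direction, sites of higher fold in L1 included a second site of ATMG01030. Its peak at 267106 to 267395, 2673 bp upstream of this 321-bp gene, had 58 fragments and a fold of 13.3 in L1, against 80 fragments and a fold of 9.62 in L4. Downstream of ATMG01060, at 275615 to 275912, there were 49 fragments and a fold of 11.5 in L1, and 73 fragments and a fold of 10.34 in L4. Downstream of ATMG00920, at 246477 to 246843, there were 51 fragments and a fold of 10.85 in L1, and 63 fragments and a fold of 7.97 in L4. All 3 had fewer fragments in L1 than in L4 and also a lower expected pileup in L1. Over the 5′ end of ATMG00980 the fold was 11.28 in L1 with 53 fragments, and 4.89 in L4 with 51 fragments; this gene falls outside the naming rule and was chosen after its values were seen.

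The remaining sites among the 10 with the highest lower fold were at or in genes. Inside ATMG00580, the longest gene assigned (7982 bp, plus strand), the peak at 162462 to 162710 had 57 fragments and a fold of 10.36 in L1, against 85 fragments and a fold of 8.82 in L4. Inside ATMG01050, at 273004 to 273319, there were 40 fragments and a fold of 8.47 in L1, and 103 fragments and a fold of 12.75 in L4. In ATMG00550, at 151442 to 151697, there were 41 fragments and a fold of 8.27 in L1, and 94 fragments and a fold of 11.9 in L4. Both short genes had a higher fold in L4, and the long one in L1. Just upstream of ATMG00170, at 47763 to 48107, the values were 74 fragments and a fold of 9.61 in L1, and 178 fragments and a fold of 12.29 in L4.

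**Figure D3:**
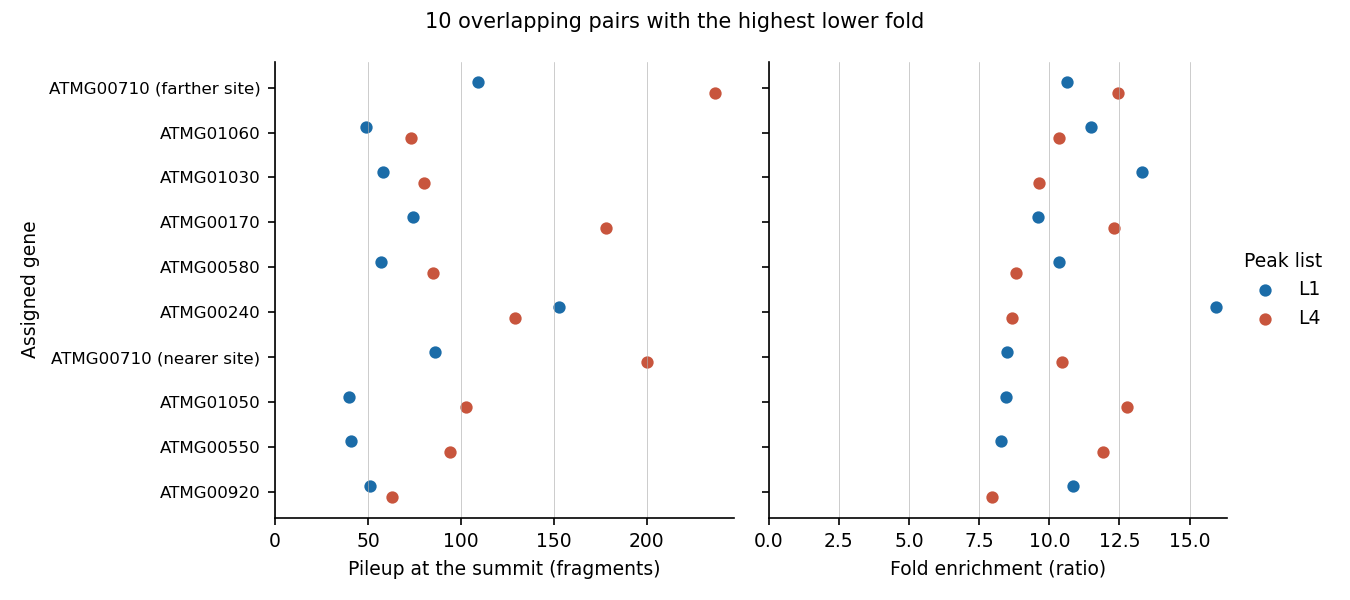
Pileup at the summit (left, fragments) and fold enrichment (right, ratio) in L1 (blue) and L4 (red) at the 10 overlapping pairs with the highest lower-of-both fold, from top to bottom. Each point is a single deposited value without error; the pileup is higher in L4 at 9 of the 10 sites and higher in L1 at ATMG00240 (153 against 129 fragments).

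At the other end, the lowest folds of L1 were 3.39 and 3.44 upstream of ATMG01150 and 3.48 inside ATMG00140. Those of L4 were 2.33 inside ATMG01360, 2.8 upstream of ATMG01350 and 2.89 over the 3′ end of ATMG00220. Of these 6 peaks, 1 of the pair at ATMG01150 overlapped a peak of the other list.

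By gene, L1 and L4 had 52 in common, which is 89.7% of the 58 L1 genes and 78.8% of the 66 L4 genes. Over all assigned genes these shares were 56.6% in L1 and 59.2% in L4. Among plastid genes they were 95.8% and 78.0%, and nuclear genes had 56.0% and 58.9%. The part that the number of genes on each genome plays in these shares was not tested. Of the 52, 47 carried peaks that overlapped between the lists. ATMG00220, ATMG00310, ATMG00560, ATMG00940 and ATMG01120 were in both lists through peaks at different positions or of different assignment. The 72 genes were 303 to 7982 bp long (median 463.5 bp), with 27 on the plus strand and 45 on the minus strand.

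The genes of a single list had modest peaks. In L1 alone these were ATMG00120, ATMG00140, ATMG00440, ATMG00520, ATMG00600 and ATMG00690. Their 7 peaks had 20 to 47 fragments and folds of 3.48 to 5.91, and 1 of the 7, at ATMG00120, overlapped an L4 peak given to the next gene. In L4 alone there were 14: ATMG00050, ATMG00060, ATMG00110, ATMG00200, ATMG00280, ATMG00300, ATMG00320, ATMG00750, ATMG00830, ATMG00840, ATMG00960, ATMG01220, ATMG01360 and ATMG01410. Their 17 peaks had 28 to 76 fragments and folds of 2.33 to 7.2, and 2 overlapped an L1 peak. The highest fold among them, 7.2 with 57 fragments, lay 590 bp upstream of ATMG00050. ATMG01360 was the only gene of a single list with 3 peaks, at folds of 2.33, 3.28 and 3.18.

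Several genes collected runs of peaks. In L1, 41 genes had 1 peak, 12 had 2, 3 had 3 and 2 had 4. In L4, 42 had 1, 14 had 2 and 10 had 3. The genes with at least 3 peaks in both lists were ATMG00010, ATMG00170, ATMG00370, ATMG01350 and ATMG01370, and L4 added ATMG00030, ATMG00240, ATMG00680, ATMG01110 and ATMG01360. At ATMG00010, a 462-bp gene on the minus strand, the 4 L1 peaks had 32, 36, 57 and 49 fragments and the 3 L4 peaks had 85, 99 and 91. At ATMG01370, the 3 L1 peaks had 53, 44 and 68 fragments and the 3 L4 peaks had 126, 104 and 154. Such runs reach far from the gene: a peak given to ATMG01350 lay 6438 bp away in L1 and 6410 bp in L4.

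Peaks mostly lay outside the gene assigned to them, which does not always mean between genes. The L4 peak at 169497 to 169733, for example, was assigned to ATMG00590 but overlapped ATMG00580 (161693 to 169674). Peaks that lay on a gene other than the assigned one were not counted. In L1, 58 of 82 peaks (70.7%) lay wholly outside the assigned gene and 24 touched it (29.3%, interval 19.7 to 40.4). In L4, 66 of 100 lay outside and 34 touched it (24.8 to 44.2). Plastid peaks touched their gene in 69.9% of cases in L1 (58.0 to 80.1) and 65.6% in L4 (55.0 to 75.1), and nuclear peaks in 38.2% and 40.5%. The mitochondrial share was thus below the plastid one in both lists, with intervals that did not meet. How densely genes fill each genome was not part of this comparison.

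By the deposited classes, 38 L1 peaks lay upstream, 8 over the 5′ end, 13 inside, 3 over the 3′ end and 20 downstream. In L4 the counts were 45, 19, 9, 6 and 21. The upstream share, 46.3% in L1 and 45% in L4, was near the nuclear 42.4% and 40.5%, and the intervals for the mitochondrial peaks held the nuclear values. Peaks over the 5′ end had median folds of 7.855 in L1 and 6.55 in L4, against 5.515 in L1 and 4.81 in L4 for those upstream. The fold ranges of both classes overlapped, at 4.84 to 11.28 against 3.39 to 13.3 in L1 and 2.91 to 12.83 against 2.8 to 17.3 in L4.

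Of the peaks over a 5′ end in L1, all 8 had an L4 counterpart that also lay over the 5′ end of the same gene, with the 356-bp summit gap at ATMG00010 among them, and 13 of the 64 pairs had their L4 peak in that class. The class was the same in both lists for 57 of the 64 pairs. At ATMG01170 the summit was 20 bp upstream of the 5′ end in L1 and 20 bp upstream in L4, with 79 fragments and a fold of 8.18 in L1 and 123 fragments and a fold of 7.73 in L4. At ATMG00210 it was 33 bp upstream in L1 and 31 bp upstream in L4, with folds of 7.53 and 9.32. At ATMG01250 it was 74 bp inside the gene in L1 and 70 bp inside in L4, with folds of 6.58 and 7.97. These 3 genes were chosen after their values were seen.

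Outside peaks lay a median of 899.5 bp from the gene in L1 (3 to 6438 bp) and 986.5 bp in L4 (33 to 6410 bp). More than 1000 bp separated peak and gene for 26 L1 peaks (31.7%) and 32 L4 peaks (32%), close to the nuclear shares of 35.4% and 33.0%. Summits within 500 bp upstream of the 5′ end numbered 12 of 82 in L1, or 14.6% (7.80 to 24.2), and 12 of 100 in L4, or 12% (6.36 to 20.02). Over all peaks the shares were 13.3% in L1 and 13.4% in L4, so that the mitochondrial shares were near the background. On the other side, within 500 bp downstream of the 5′ end, there were 14 L1 summits (17.1%, 9.66 to 27.0) and 23 L4 summits (23%, 15.2 to 32.5), against plastid shares of 35.6% and 32.3% and nuclear shares of 7.21% and 7.05%. The mitochondrial shares here lay between those of the other genomes.

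**Figure D4:**
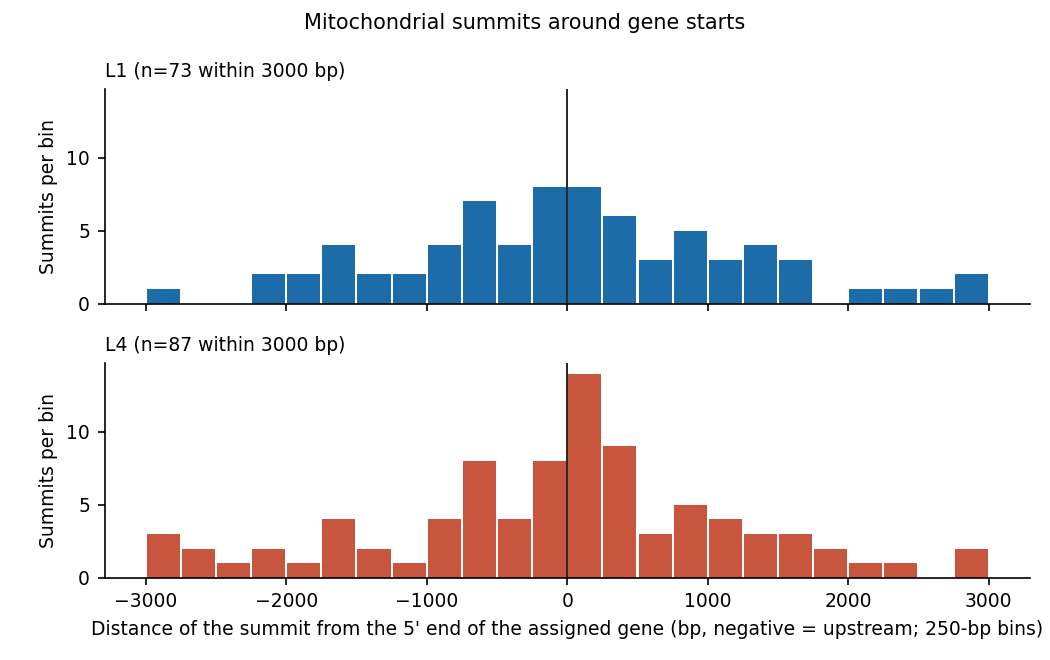
Number of mitochondrial summits per 250-bp bin by distance from the 5′ end of the assigned gene (bp, negative is upstream) in L1 (top) and L4 (bottom). Summits spread over several kilobases on both sides of the start, and 9 L1 and 13 L4 summits lie beyond the 3000 bp shown.

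Peaks were spread around the whole molecule. In bins of 10000 bp (37 bins, the last one shorter), the median was 2 peaks per bin in both lists. The highest counts were 5 in L1, at 1 to 10000, 40001 to 50000 and 180001 to 190000, and 6 in L4, at 1 to 10000. L1 had 3 empty bins, at 10001 to 20000, 130001 to 140000 and 230001 to 240000, and L4 had none. Counts per bin had a rho of 0.565 between the lists, as a description over 37 bins. The longest stretch without an L1 peak was 21460 bp, at 7867 to 29326. The longest without an L4 peak was 10095 bp, at 208845 to 218939, which also lacked L1 peaks and begins next to the tall pair at ATMG00710.

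The expected pileup was uneven along the molecule and had like highs and lows in both lists. Its bin median was lowest in L1 at 120001 to 130000, with 2.84 fragments, where L4 had 6.22. It was lowest in L4 at 130001 to 140000, with 5.66 fragments from 1 peak, where L1 had no peak. It was highest in L1 at 340001 to 350000, with 11.6 fragments in L1 and 15.4 in L4, and highest in L4 at 200001 to 210000, with 10.3 in L1 and 19.0 in L4. Fold tended to be lower where the expected pileup was higher, and across peaks the rho between them was −0.385 in L1 (82 peaks) and −0.281 in L4 (100 peaks). These share the expected pileup as a term, since it is the denominator of the fold.

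The peaks around ATMG00170 had a parallel set around ATMG00620, a pattern picked after the values were seen. Both genes are 420 bp long on the plus strand, at 48113 to 48532 and 182278 to 182697, and lie 134165 bp apart. In L1 the 3 peaks of ATMG00170 began 134154, 134167 and 134180 bp before 3 peaks at ATMG00620 and its neighbour ATMG00630. In L4 the distances were 134167, 134172 and 134170 bp. The tallest peak of each set, just upstream of the gene, had 74 fragments at ATMG00170 and 67 at ATMG00620 in L1, and 178 and 171 in L4. The first peaks of the sets had 40 and 47 fragments in L1 and 54 and 47 in L4, and the third 51 and 45 in L1 and 78 and 68 in L4. The sets thus matched in order and spacing and were close in pileup. In fold they were less alike at the tallest and the last peaks, where the ATMG00170 set was higher in both lists. The peaks farthest upstream were about as close in fold as in pileup, and their direction differed between the lists. They had folds of 4.76 at ATMG00170 and 5.66 at ATMG00620 in L1, and 3.47 and 3.01 in L4. The tallest peaks had folds of 9.61 at ATMG00170 and 6.86 at ATMG00620 in L1, and 12.29 and 9.44 in L4. The third peaks had folds of 7.16 and 4.61 in L1, and 5.64 and 3.82 in L4. Whether the sequences are repeated, and whether reads were shared between the places, was not tested.

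A share of the mitochondrial peaks had a partner on chromosome 2 at a near-constant distance, also a pattern chosen after the values were seen. Distances between the summits of mitochondrial and nuclear peaks were counted in windows of 100 bp over both lists. The fullest window on chromosome 2 held 26 pairs (13 in L1 and 13 in L4) and the next 22 (10 and 12), while no window on another chromosome held more than 13. Allowing 100 bp to either side of the central distance, 20 of 82 L1 peaks (24.4%) and 24 of 100 L4 peaks (24%) had a partner within the stretches joined by these distances.

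The first stretch ran from mitochondrial position 45808 to 114587 and met chromosome 2 at 3436443 to 3505114. The stretch ends at its outermost partnered peaks, so a high share with a partner is partly built in. Over the whole molecule, 17 L1 and 21 L4 peaks had a partner at the distance of this stretch. Within the stretch, 14 of 15 L1 peaks and 17 of 21 L4 peaks had one. The pileup of the mitochondrial peak was 0.62 to 3.26 times that of its partner in L1 (median 1.06), and 0.383 to 1.37 times in L4 (median 0.964). Within a factor of 1.5 were 11 of 14 pairs in L1 and 16 of 17 in L4. Across pairs the rho was 0.746 in L1 and 0.750 in L4, as a description. Pearson's r was 0.389 in L1 and 0.895 in L4. By the ratios, heights of partners were mostly alike, with a few pairs apart.

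The second stretch ran from mitochondrial position 114215 to 169780 and met chromosome 2 at 3370622 to 3426898. Its ends were likewise set by partnered peaks. Over the whole molecule, 10 L1 and 13 L4 peaks had a partner at the distance of this stretch. Within the stretch, 6 of 12 L1 peaks and 8 of 10 L4 peaks had one. Their ratios were 0.808 to 1.08 in L1 (median 0.875) and 0.627 to 1.89 in L4 (median 0.876). Within a factor of 1.5 were 6 of 6 pairs in L1 and 6 of 8 in L4, and the widest apart was ATMG00480 in L4, with 72 fragments against 38. On chromosome 2 the stretches lie in the opposite order to that on the mitochondrial molecule. The L4 peak at ATMG00430, where the stretches meet, had 89 fragments and partners at both ends, with 82 fragments at 3504788 to 3505114 and 100 fragments at 3370622 to 3371049.

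Single pairs show how near or far apart the values were. At ATMG00210 the mitochondrial peak had 47 fragments and its partner 48 in L1, and 102 and 100 in L4. At ATMG00450, the site with the highest fold in L4, the mitochondrial peak had 119 fragments and a fold of 17.3 in L4, and its partner had 128 fragments and a fold of 17.63. At ATMG00170 the tallest mitochondrial peak had 74 fragments and its partner 118 in L1, and 178 and 248 in L4. The peak downstream of ATMG00240 had 153 fragments in L1 and its partner 47, and in L4 it had no partner within the 100 bp allowed. In the opposite direction, the L4 peak over the 3′ end of ATMG00220 had 46 fragments and its partner 120.

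**Figure D5:**
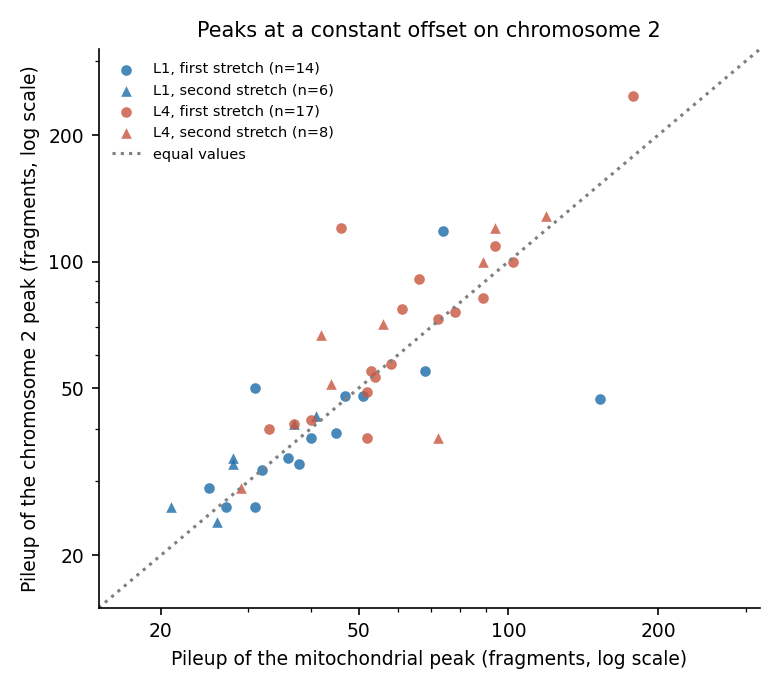
Pileup of mitochondrial peaks (horizontal, fragments, log axis) and of their partners on chromosome 2 (vertical, fragments, log axis) in L1 (blue) and L4 (red); circles are the first stretch and triangles the second. Each point is a pair and the dotted line marks equal values; most points lie close to it, and the point farthest below it is ATMG00240 in L1 (153 against 47 fragments).

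The chromosome 2 peaks in this region resembled mitochondrial peaks more than other nuclear ones in expected pileup. Between 3370622 and 3505114 there were 33 L1 peaks with a median expected pileup of 5.70 fragments and 37 L4 peaks with 9.60, against nuclear medians of 1.98 and 1.36 fragments. Their median folds were 6.11 in L1 and 5.43 in L4, below the nuclear medians of 8.72 and 11.65. From which of the 2 places the fragments came cannot be told apart from the peak lists. Without the mitochondrial peaks that had a partner within the stretches, 47 of 62 L1 peaks (75.8%) met a peak of the other list. So did 46 of 76 L4 peaks (60.5%), an alternative added after the data were seen.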

How the data were processed

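One annotated ChIP-seq peak list per line was used, for L1, L4 and L3. Peaks were called with MACS2, per the submitters' processing notes. Not given in the sources used here are the version and settings of the caller, genome build, aligner, control, and any pooling of replicates. Per the file headers, pileup as deposited is a signal, read here as overlapping fragments at the summit. Fold enrichment as deposited is a ratio to a local expectation. The authors gave the p-value and q-value of each peak as −log10 values.

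The expected pileup was computed as pileup divided by fold. The deposited p-values matched a Poisson tail with that mean within 0.3 on the −log10 scale for 100% of peaks in L1 and in L4. Positions are those of the files, and distances from a peak to its assigned gene are the authors' shortest distances, while summit positions are measured from the gene's 5′ end on its strand. Peaks were grouped by the line in the labels and overlapped between lists at 1 bp or more. Medians have 95% order-statistic intervals and shares 95% Clopper-Pearson intervals. No test between lines was possible with 1 list per line. Identifiers were looked up in a RefSeq table of TAIR10.1, and 0 of 72 matched.

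Genes were named by this rule: the 10 overlapping pairs with the highest lower-of-both fold, the 3 highest pileups, 3 highest folds and 3 lowest folds of each list, genes with 3 or more peaks, and genes of a single list. Other peaks were chosen after their values were seen, as stated where they appear. Members and lists were chosen with earlier results of these data known. Alternatives covered the overlap required, stricter peak sets, joined peaks, gene assignment and bin size. Overlap and distance steps were tested on simulated data. Scripts used pandas 2.3.3, scipy 1.17.1, numpy 2.4.6 and matplotlib 3.10.9 under Python 3.11.15.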

Additional observations from a re-analysis of the deposited data

How the results depend on the processing

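Of 40 recomputed values, 32 stayed within the interval or factor set for them and 8 moved. Counting a gene only where a peak assigned to it overlaps it left 23 genes in L1, 33 in L4 and 18 in both. Keeping the upper 50% of peaks by fold left 36, 41 and 31. By construction, fewer peaks entered in each case. With overlap of the gene required, the genes in both lists were 78.3% of the L1 genes and 54.5% of the L4 genes. In the upper 50% they were 86.1% and 75.6%, against 89.7% and 78.8% in the main count. With the upper 50% by fold, the highest density was 3 peaks per 10000 bp in L1 and 3 in L4. The share of L1 peaks overlapping an L4 peak ran from 74.2% to 80.5% and that of L4 peaks from 59.0% to 66% over 6 alternatives each, 1 of them added after seeing the data. The share of summits within 500 bp upstream was 14.6% to 19.5% in L1, against 12% to 16% in L4. No paired analysis was possible because the lists carry no sample columns and no replicate numbers. For the same reason no replicate could be left out, and unknown depth limits how far a peak missing from a list can be read as an absent one.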
